A study of Homo sapiens with 6 samples.

Results

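The genes described here are the myosin heavy and light chains, together with MYLK, MYLK3, ROCK1, ROCK2, PPP1R12A and PPP1R12B, which encode enzymes or enzyme subunits that set the phosphorylation of the myosin regulatory light chain. Members were chosen by gene symbol (MYH, MYL or MYO followed by a number, with the 6 regulators added), without using their values, and they make up 58 of the 38900 genes in the table. RNA sequencing after polyA selection was done on 6 libraries of hTERT RPE1, a widely used human line of retinal pigment epithelium made immortal with telomerase. All cultures had been held at 100% confluency for 5 days, a state in which the cells stop dividing. For the last 6 hours they received fresh medium with 100 nM combretastatin A4 (CA4; 3 libraries), a small molecule that binds tubulin and takes microtubules apart, or with 0.1% DMSO (3 libraries). The labels do not say whether replicates came from separate cultures, so p-values measure the spread between these libraries, which may be technical.

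Myosins are motors that pull on actin filaments. In cells outside muscle, contraction is driven by nonmuscle myosin II, a hexamer of a pair of heavy chains (from MYH9, MYH10 or MYH14), a pair of regulatory light chains (MYL9, MYL12A or MYL12B) and a pair of essential light chains (MYL6 or MYL6B). It is switched on when a serine, and then the threonine beside it, in the regulatory light chain is phosphorylated by myosin light chain kinase (MYLK) or by the kinases ROCK1 and ROCK2, and switched off by a phosphatase that PPP1R12A or PPP1R12B directs to myosin. Microtubules are linked to this system because they hold GEF-H1 (ARHGEF2), an activator of RHOA, inactive, and drugs that depolymerize microtubules are known to raise contractility in cultured cells. Unconventional myosins, the products of the MYO genes, do not form such filaments and act in membrane tension, endocytosis, filopodia and organelle transport. The present data measure RNA, and neither phosphorylation nor protein was measured.

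The site of control is shared by the 3 regulatory light chains. The coding sequence around it is shown to let the genes be compared, from GENCODE 29 transcripts, 5′ to 3′, with the codons of the phosphorylated threonine and serine in capitals.
MYL12A: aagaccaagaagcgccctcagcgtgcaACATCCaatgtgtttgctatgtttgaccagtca
MYL12B: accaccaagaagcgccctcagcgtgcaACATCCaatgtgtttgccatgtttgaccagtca
MYL9: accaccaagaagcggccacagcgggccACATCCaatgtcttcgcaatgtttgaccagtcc
The capitals are codons 18 and 19 of MYL12A and codons 19 and 20 of MYL12B and MYL9, counted from the first methionine. The MYL12A and MYL12B stretches differed at 3 bases, those of MYL12A and MYL9 at 10, and those of MYL12B and MYL9 at 8. Over the whole coding sequence MYL12A and MYL12B had 95.2% identical bases, and MYL9 had 78.6% and 80.5% in common with them. MYL12A and MYL12B lie beside each other on the same strand, at chr18:3247481-3256236 and chr18:3261479-3278431 (GRCh38). Of the 50-base words in their transcripts, 2.25% of those of MYL12A occurred in MYL12B and 3.94% of those of MYL12B in MYL12A, so a small part of their reads could have been exchanged in counting.

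The libraries held 19524936 to 22538004 reads each, recovered from the deposited normalized counts, and a gene was tested when its 6 libraries averaged 10 normalized counts or more, as 13928 did. In limma's moderated test 688 of these genes (4.94%) passed a Benjamini-Hochberg adjusted p of 0.05, 413 of them higher and 275 lower in CA4. When totals were made equal there were 802, of which 279 were higher and 523 lower, and the median over all tested genes moved by -0.10 log2 units, so the sign of a small change holds for 1 scaling at a time. Among markers of the labelled cell type, RPE65 lay between 13.5 and 40.8 normalized counts and the keratin gene KRT8 between 14118 and 16502, while 4 of the 12 pigment epithelium genes listed had too few reads for testing and TTR was at 0 in each library. The list summed to 24193 to 26621 in DMSO and 27033 to 32206 in CA4, most of it from KRT8 and KRT18, which together gave 22511 to 25476 and 25978 to 31421. The other 10 genes, a split made after the values were seen, summed to 1145 to 1850 in DMSO and 650 to 1055 in CA4. Most of that sum came from MITF (means 885 in DMSO and 457 in CA4) and OTX2 (533 and 244). BEST1, PMEL and SERPINF1 were fitted at -0.032, 0.30 and 0.15 log2 units and did not pass. Of the 8 tested genes in the list, 4 were fitted above 0 and 4 below. OTX2, an identity factor of this epithelium, fell (log2 fold change -1.11, adjusted p = 0.0158 in limma), while MITF (-0.98), RPE65 (-0.69) and KRT18 (0.46) did not pass (adjusted p = 0.1, 0.347 and 0.0849 in limma). Of the 8 skeletal muscle markers 1 was tested, the summed list lay at 173 to 194 normalized counts in DMSO and 186 to 193 in CA4, and MYOG was at 0. Of 6 heart muscle markers 1 was tested, with sums of 177 to 813 in DMSO and 187 to 588 in CA4. The 6 smooth muscle genes, 5 of them tested, summed to 8931 to 10226 in DMSO and 15525 to 16381 in CA4, most of it from LMOD1 and SMTN. ACTG2 and LMOD1 passed the test as higher in CA4. CNN1, SMTN and SYNPO2 (log2 fold changes 1.23, 0.56 and -0.097) did not pass (adjusted p = 0.111, 0.17 and 0.9 in limma). In bulk RNA a change in the number of cells of a type and a change of RNA per cell cannot be told apart, and the part of these markers in the results below was not tested.

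Of the 58 members, 32 were tested and 26 averaged fewer than 10. Among the 32, MYL12A, MYO1E and MYH9 rose in CA4 (limma, adjusted p = 0.0156, 0.0217 and 0.0404), and 29 did not pass. No member fell in limma, edgeR or DESeq2, and 1 of the 9 members at an unadjusted p under 0.05 (limma) was lower, MYH10. Those 9 are 28.1% of the tested members, near the 23% of all tested genes at that level. DESeq2, on the recovered reads, called 8 of the 31 members to which it gave an adjusted p (25.8%, beside 12.3% of all such genes), adding MYL12B (DESeq2 adjusted p = 0.00925), MYO1C (0.00286), MYO10 (0.0016), MYO9B (0.00382) and PPP1R12B (0.00827), while edgeR called the same 3 as limma. These 3 are 9.38% of the tested members, beside 4.94% of all tested genes called in either direction 2.97% called as higher and 1.97% called as lower. The 3 CA4 libraries lay entirely above the DMSO libraries in 9 members and entirely below them in 1, together 31.2% of the members, where 27.7% of all tested genes were without overlap. That share is close to the background, and the median log2 fold change of the 32 was 0.093 beside -0.0082 over all tested genes. With the libraries scaled to the same total the members' median was -0.0066 beside -0.11. The fitted difference was above 0 in 19 members and below 0 in 13.

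**Figure D1:**
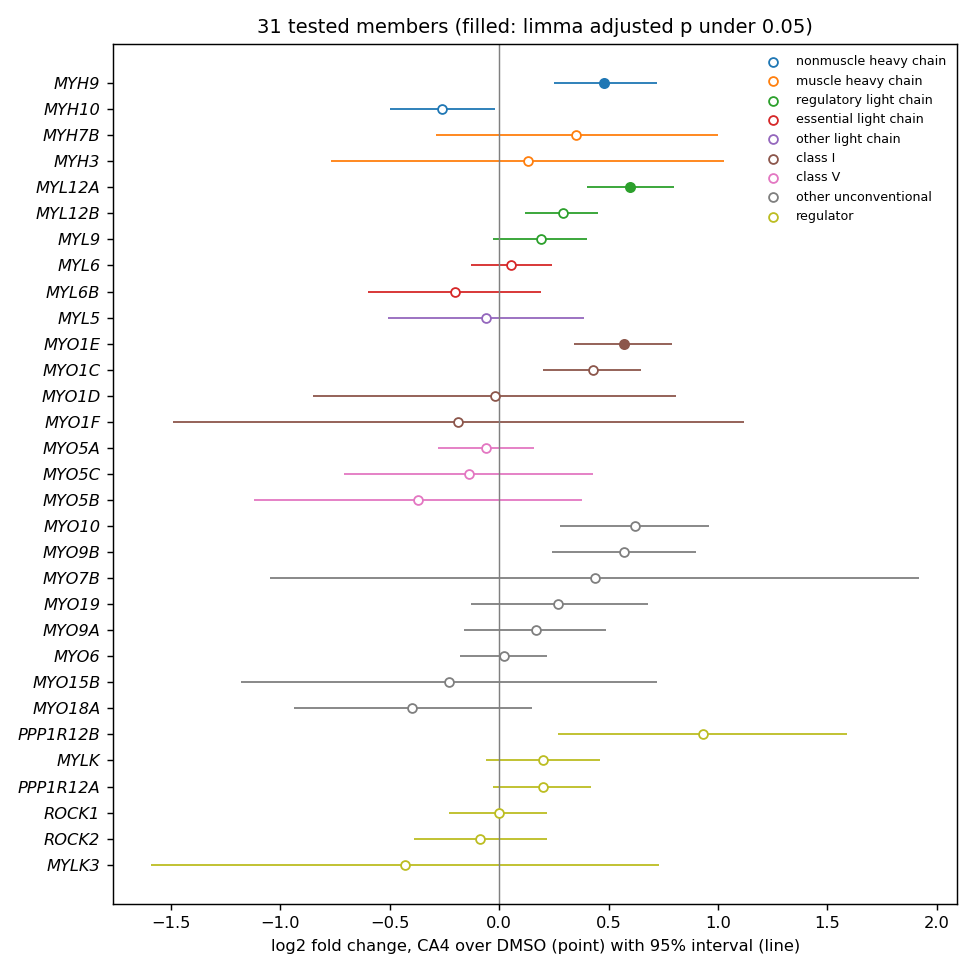
Log2 fold change of CA4 over DMSO (x axis) for 31 of the 32 tested members, grouped by kind of protein on the y axis. Points are limma estimates, lines are 95% intervals, and filled points mark MYH9, MYL12A and MYO1E, which passed an adjusted p of 0.05. The intervals of the weakly expressed MYO7B, MYO1F and MYLK3 span more than 2 log2 units.

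Of the 3 nonmuscle heavy chain genes, MYH9 rose in CA4, MYH10 did not pass and MYH14 was too low for testing. MYH9, the gene of nonmuscle myosin heavy chain IIA (chr22:36281277-36388067, minus strand, GRCh38), had 146336, 129194 and 132404 normalized counts in DMSO, by replicate number here and in what follows, and 199441, 194422 and 176874 in CA4. Every CA4 library lay above every DMSO library, and the groups were separated by more than the spread within either. The means were 135978 ± 9113 and 190246 ± 11849 (SD, n = 3 each), a 1.4-fold rise or a log2 fold change of 0.48 (adjusted p = 0.0404 in limma, SE 0.10). MYH9 was among the most heavily read genes of these cells, at rank 7 of the 38900 by mean normalized count, and took 0.631% to 0.718% of the reads in DMSO and 0.787% to 0.916% in CA4. Its call depended on the scaling. The log2 fold change was 0.38 with equal totals (adjusted p = 0.0768 in limma) and 0.15 after quantile normalization (adjusted p = 0.421 in limma), which forces genes of the same rank to the same value. It was also lost with no filter on low values (adjusted p = 0.099 in limma) and without the variance trend (adjusted p = 0.0829 in limma).

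MYH10, the gene of heavy chain IIB, a paralog found at high levels in brain, had 2435, 2373 and 2269 normalized counts in DMSO and 2009, 2200 and 1734 in CA4. Here each CA4 library lay below each DMSO library, and MYH10 was the single tested member for which this was so. The log2 fold change of -0.26 (95% interval -0.50 to -0.019) did not pass over all genes (adjusted p = 0.188 in limma), and it was -0.17 without CA4 replicate 3. MYH14, the gene of heavy chain IIC, had 0.966, 0 and 0 normalized counts in DMSO and 0, 0 and 1.11 in CA4. Per kilobase of the longest protein-coding transcript, MYH9 stood at a level of 18001 normalized counts in DMSO and 25185 in CA4, and MYH10 at 304 and 255.

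The ratio of MYH9 to MYH10 within a library does not depend on the library's scaling. On the log2 scale it was 5.91, 5.77 and 5.87 in DMSO and 6.63, 6.46 and 6.67 in CA4, so the 2 groups did not overlap. The difference was 0.74 (exact permutation test, two-sided, p = 0.1, which is the lowest value 3 libraries against 3 can reach, and 0.2 adjusted over the 6 ratios computed). It lay between 0.70 and 0.80 when any 1 of the 6 libraries was left out.

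Of the 3 regulatory light chain genes, MYL12A rose in CA4, and MYL12B and MYL9 did not pass. MYL12A had 7657, 7504 and 7524 normalized counts in DMSO and 10337, 11706 and 12422 in CA4. The DMSO libraries were close together, and the lowest CA4 library lay well above them. The means of 7562 ± 83 and 11488 ± 1059 (SD, n = 3 each) differed by 0.60 log2 units (adjusted p = 0.0156 in limma, SE 0.09), the smallest p of the 32 members. The estimate lay between 0.50 and 0.67 in the 18 alternatives, and the call was lost without the variance trend (adjusted p = 0.0638 in limma), as was that of MYO1E (adjusted p = 0.0756 in limma).

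MYL12B, its neighbour, had 5891, 5591 and 5558 normalized counts in DMSO and 6651, 6886 and 7265 in CA4. The groups again did not overlap, but the estimate of 0.29 log2 units (SE 0.07) did not pass (adjusted p = 0.0644 in limma). MYL9, the form abundant in smooth muscle, had 24851, 22526 and 26377 in DMSO and 26864, 26912 and 30160 in CA4. Its groups were separated by less than the spread among the DMSO libraries, and the log2 fold change was 0.19 (95% interval -0.026 to 0.40, adjusted p = 0.275 in limma). The sign for MYL9 was kept by both total and 75th percentile scaling and turned after quantile normalization, to -0.033.

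The essential light chains showed no difference that passed. MYL6 had 20820, 20249 and 22517 normalized counts in DMSO and 20805, 22891 and 22385 in CA4, and the groups overlapped. Its log2 fold change was 0.056 (95% interval -0.13 to 0.24, adjusted p = 0.726 in limma), and it was -0.13 after quantile normalization and -0.046 with equal totals. The annotation places 11.2% of its exon bases in SMARCC2 as well, on the opposite strand. MYL6B, with 569, 674 and 671 in DMSO and 480, 709 and 494 in CA4, overlapped too (log2 fold change -0.20, adjusted p = 0.52 in limma). Per kilobase, the levels in DMSO ran in the order MYL6 (14740), MYL9 (8715), MYL12A (6153), MYL12B (4548) and MYL6B (489 normalized counts), and in CA4 they were 15318, 9918, 9348, 5552 and 430. MYL9 and MYL12A, neighbours in that order, differed by more than their SDs in DMSO and by less in CA4. The lengths used were those of the longest transcript, 2821 bases for MYL9 and 1229 for MYL12A. Transcript use was not measured, so the order holds for these lengths only.

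**Figure D2:**
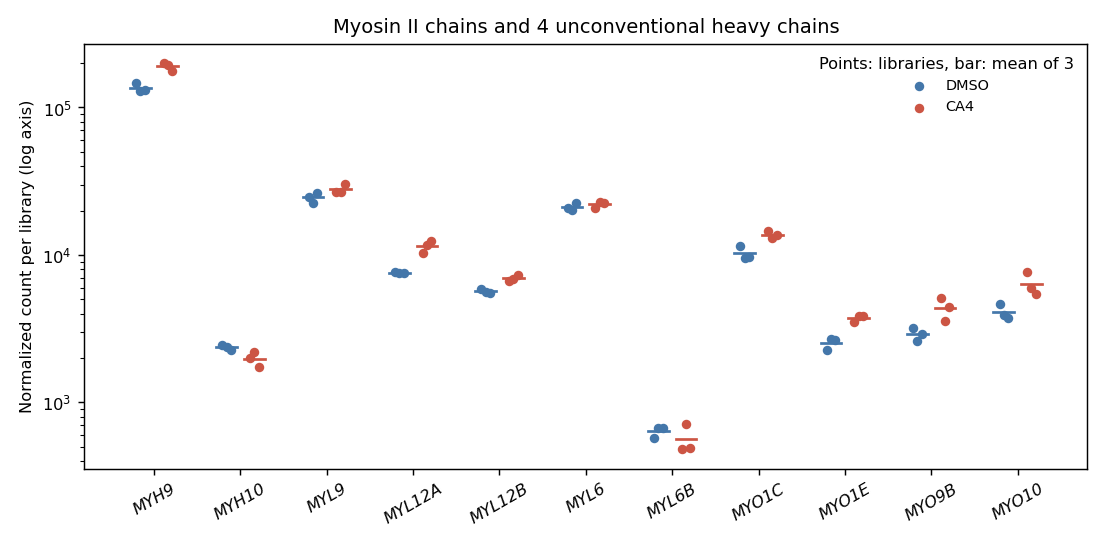
Normalized counts per library on a log axis for the myosin II chains and 4 unconventional heavy chains, with points for single libraries and bars for the mean of 3. MYH9 lies near 135978 in DMSO and 190246 in CA4, and MYL12A shows no overlap between 7657, the highest DMSO library, and 10337, the lowest CA4 library.

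Ratios among the light chains were compared within each library, and none passed after adjustment. The log2 ratio of MYL9 to the sum of MYL12A and MYL12B was 0.88, 0.78 and 1.01 in DMSO and 0.66, 0.53 and 0.62 in CA4, a difference of -0.29. That of MYL6 to the same sum was 0.62, 0.63 and 0.78 in DMSO and 0.29, 0.30 and 0.19 in CA4, a difference of -0.42. In both ratios every CA4 library lay below every DMSO library (two-sided exact permutation p = 0.1 for each, the smallest possible here, and 0.2 adjusted over the 6 ratios).

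**Figure D3:**
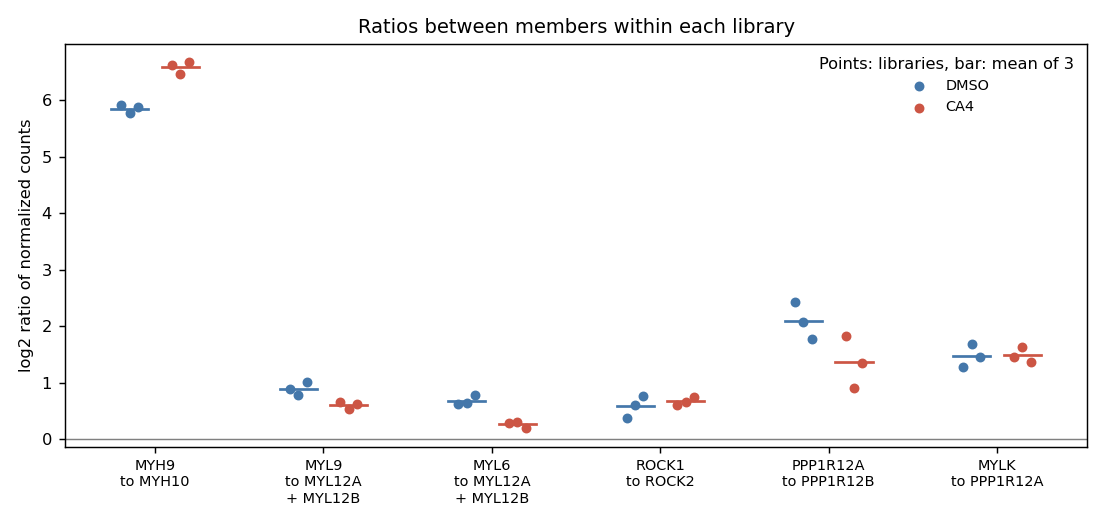
Log2 ratios of normalized counts between members within each library for 6 pairs, DMSO and CA4 side by side, with bars at the mean of 3 libraries. The groups do not overlap for MYH9 to MYH10 and for MYL9 or MYL6 to MYL12A plus MYL12B, and they overlap for the other 3 pairs.

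Of the 25 unconventional heavy chain genes, 16 were tested, and MYO1E rose. MYO1E (chr15:59132434-59372900, minus strand, GRCh38) encodes a class I myosin of endocytic sites and cell contacts. It had 2261, 2707 and 2656 normalized counts in DMSO and 3516, 3875 and 3872 in CA4, with a gap between the groups wider than the range of either. The means were 2541 ± 244 and 3755 ± 207 (SD, n = 3 each), apart by 0.57 log2 units (adjusted p = 0.0217 in limma, SE 0.10).

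The promoters of the tested members were searched for the CArG box, the motif bound by serum response factor (SRF), and for GGAATG or its complement CATTCC, the core bound by TEAD factors, since both factors are known to respond to the actin cytoskeleton. RefSeq's table gave 45 windows of 250 bases before to 50 after a start for 28 of the 32 tested members (GRCh38.p14), read on both strands. A CArG box was found in 3 of the 45 windows (6.67%, beside 1.29% of 35116 windows of all genes), in MYO1E, MYLK and ROCK2, and the TEAD core in 9 (20%, beside 14%), in windows of MYH9, MYH10, MYL12A (1 of its 3 windows, 18 bases after the start), MYLK, MYLK3, MYO7B, ROCK2 and PPP1R12A (2 windows). MYL9, MYH3 and MYH7B are among the members without a window. The MYLK and ROCK2 windows with the box lie inside those genes as GENCODE 29 places them. MYO1E rose, while MYLK and ROCK2 did not pass, and no box was found in the windows of MYH9 or MYL12A, which also rose. In MYO1E the box begins 31 bases before the start. The bases from 71 to 22 before the start are shown with the box in capitals (chr15:59372893-59372942, minus strand). GENCODE 29 starts the first exon earlier, so 8 of these bases lie in it.
MYO1E: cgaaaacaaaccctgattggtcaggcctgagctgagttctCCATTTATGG
Such a match describes the sequence, and binding was not measured.

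MYO1C, a class I myosin of the plasma membrane and of vesicle delivery, lay just outside the threshold. It had 11537, 9501 and 9702 normalized counts in DMSO and 14586, 13111 and 13547 in CA4, without overlap, and a log2 fold change of 0.43 (adjusted p = 0.0503 in limma, SE 0.10). MYO1D and MYO1F, also of class I, had at most 96.3 and 20.3 normalized counts.

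MYO10 and MYO9B had larger estimates with wider errors. MYO10, the motor that moves to the tips of filopodia, had 4659, 3892 and 3757 normalized counts in DMSO and 7684, 5938 and 5425 in CA4. The groups did not overlap, but the CA4 libraries were spread over more than the distance between the nearest DMSO and CA4 libraries (log2 fold change 0.62, SE 0.14, adjusted p = 0.0542 in limma). MYO9B, a myosin that carries a domain that switches off RHOA, had 3214, 2625 and 2925 in DMSO and 5108, 3557 and 4422 in CA4, again without overlap (log2 fold change 0.57, SE 0.14, adjusted p = 0.0647 in limma). Its paralog MYO9A had 973, 744 and 1046 in DMSO and 1088, 1015 and 967 in CA4, and the groups overlapped (log2 fold change 0.17, adjusted p = 0.526 in limma, and 0.019 log2 units without DMSO replicate 2).

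The remaining motors overlapped between the groups. MYO18A, linked to Golgi shape, had 1256, 1626 and 1229 normalized counts in DMSO and 1033, 1434 and 743 in CA4 (log2 fold change -0.40, 95% interval -0.94 to 0.15, adjusted p = 0.361 in limma), and 9.26% of its exon bases also belong to TIAF1 on the same strand. MYO19, the mitochondrial myosin, had 808, 721 and 734 in DMSO and 1208, 836 and 750 in CA4, a difference carried mainly by CA4 replicate 1 (log2 fold change 0.27, adjusted p = 0.401 in limma). Without that library its log2 fold change was 0.07, and without CA4 replicate 3 it was 0.42. That of MYO18A was -0.16 without CA4 replicate 3 and -0.63 without CA4 replicate 2.

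Of the cargo carriers, MYO6 and MYO5A had estimates near 0 with narrow intervals. MYO6, which moves towards the minus end of actin, lay between 1263 and 1432 normalized counts over the 6 libraries (log2 fold change 0.022, 95% interval -0.18 to 0.22). For the class V transporters MYO5A, MYO5B and MYO5C the fitted values were -0.059, -0.37 and -0.14, with 0 of 3 past the threshold and 0 at an unadjusted p under 0.05 (limma), and the 95% interval was narrow for MYO5A (-0.28 to 0.16) and wide for MYO5B (-1.12 to 0.38). MYO7B and MYO15B stayed under 60 normalized counts in each library and had intervals too wide for a direction.

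The 6 regulators chosen as members showed no difference that passed over all genes in limma, and in each of the 6 the groups overlapped. PPP1R12B was the 1 of the 6 with an unadjusted p under 0.05, and DESeq2 called it. MYLK had 7327, 8633 and 9051 normalized counts in DMSO and 8899, 10774 and 9073 in CA4 (log2 fold change 0.20, 95% interval -0.061 to 0.46, adjusted p = 0.337 in limma). The gene gives both light chain kinases and the short protein telokin, which a count per gene does not separate. ROCK1 had 2123, 1954 and 2301 in DMSO and 2204, 2225 and 1940 in CA4, with almost equal means (log2 fold change -0.0015, 95% interval -0.23 to 0.22). Of its 50-base words 11% also occur in the pseudogene ROCK1P1. ROCK2 had 1626, 1282 and 1357 in DMSO and 1457, 1404 and 1150 in CA4 (log2 fold change -0.088, 95% interval -0.39 to 0.22). For either ROCK gene the interval leaves out a change of the size fitted for MYL12A.

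PPP1R12A, the main myosin targeting subunit, had 3028, 2677 and 3296 normalized counts in DMSO and 3255, 3484 and 3544 in CA4 (log2 fold change 0.20, 95% interval -0.026 to 0.42, adjusted p = 0.273 in limma). PPP1R12B, a form described in heart and smooth muscle, had 562, 636 and 958 in DMSO and 915, 1857 and 1398 in CA4. CA4 replicate 1 lay below DMSO replicate 3, so the groups overlapped, and the spread within CA4 was large. Its log2 fold change of 0.93 (SE 0.29) was the largest estimate of the 32 members but missed the threshold (adjusted p = 0.105 in limma), and it ranged from 0.69 to 1.2 with 1 library left out. SYT2, on the opposite strand, covers 10% of its exon bases. The log2 ratio of PPP1R12A to PPP1R12B was 2.43, 2.07 and 1.78 in DMSO and 1.83, 0.91 and 1.34 in CA4, a difference of -0.73 with overlapping groups (two-sided exact permutation p = 0.2). The ratios of ROCK1 to ROCK2 and of MYLK to PPP1R12A differed by 0.087 and 0.0046 between the groups (two-sided exact permutation p = 0.7 and 1). MYLK3, the kinase known from heart muscle, had 23.2, 25.2 and 43.7 normalized counts in DMSO and 10.6, 34.8 and 26.7 in CA4, with a 95% interval of -1.59 to 0.73 log2 units.

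**Figure D4:**
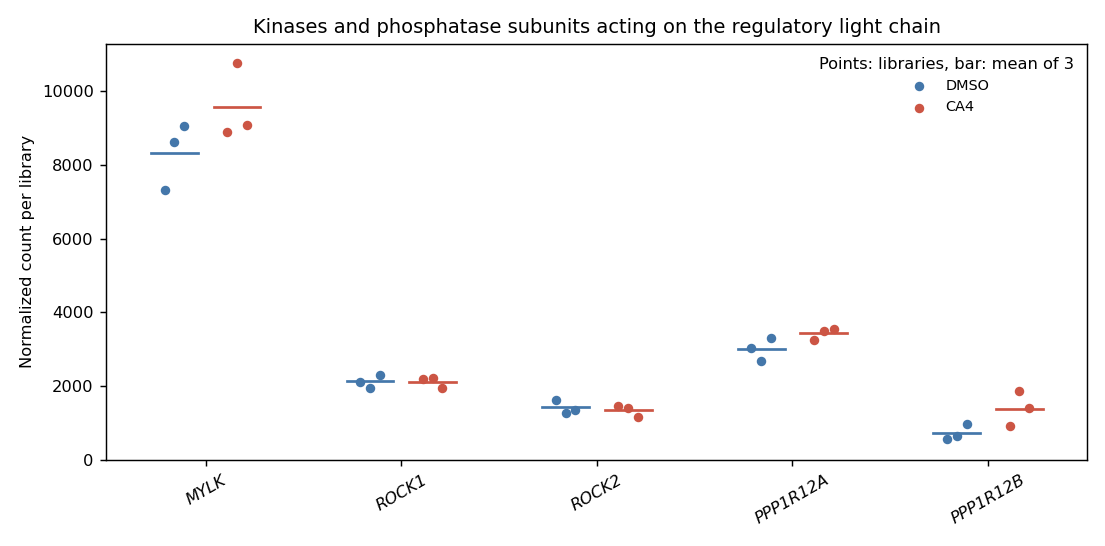
Normalized counts per library for MYLK, ROCK1, ROCK2, PPP1R12A and PPP1R12B on a linear axis from 0, with points for libraries and bars for the mean of 3. DMSO and CA4 overlap in each gene, and the PPP1R12B libraries in CA4 run from 915 to 1857.

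The chains of striated muscle were near or at the limit of detection. Of the 11 muscle heavy chain genes, MYH3, the embryonic form, lay between 15 and 30.1 normalized counts and MYH7B between 22.8 and 33.8, and neither passed. The groups of MYH7B did not overlap, with 22.8 to 29 in DMSO and 31.2 to 33.8 in CA4 (log2 fold change 0.35, adjusted p = 0.497 in limma). MYH1, MYH2, MYH4, MYH8, MYH13, MYH15 and the pseudogene MYH16 reached at most 17.1 in any library, and MYH6 and MYH7 were at 0. Of the 8 other light chain genes, MYL5 was tested, at 122 to 179 normalized counts (log2 fold change -0.061, adjusted p = 0.888 in limma), while MYL1, MYL4, MYL7 and MYL11 reached at most 11.1 and MYL2, MYL3 and MYL10 were at 0.

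Among the unconventional genes left untested, MYO1G, MYO1H, MYO3B, MYO7A and MYO15A reached at most 14.2, and MYO1A, MYO3A and MYO16 were at 0. MYO7A, a motor of the native retinal pigment epithelium, had 0.966 to 3.37 normalized counts. MYO18B had 23.4 in CA4 replicate 3 and at most 0.966 in each of the other 5 libraries. For a library with a value of 0, counting error alone leaves room for an expected count of up to about 3 reads. In all, 8 members were at 0 in each of the 6 libraries.

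The other genes of the pathway were taken from a list of 51 GTPases and their regulators, kinases, phosphatase subunits and actomyosin binding proteins, of which 46 were tested. CALD1 and DAPK3 rose, SVIL and ARHGAP18 fell, and 42 did not pass, so that 8.7% of the list was called beside 4.94% of all tested genes. CALD1 encodes caldesmon, which restrains myosin on actin. It averaged 31836 ± 2757 (DMSO) and 53864 ± 4567 (CA4; SD over 3 libraries), or 0.76 as log2 fold change (adjusted p = 0.0124 in limma). DAPK3, a kinase that phosphorylates the regulatory light chain and the phosphatase, averaged 2831 ± 123 and 3931 ± 189 (SD, n = 3 each), or 0.47 as log2 fold change (adjusted p = 0.0199 in limma). SVIL encodes supervillin, a membrane protein that binds myosin II. It had 4394, 5288 and 4758 in DMSO and 1309, 1805 and 1376 in CA4, or -1.70 as log2 fold change (adjusted p = 0.00222 in limma). ARHGAP18, which switches off RhoA, had 1266, 1400 and 1215 in DMSO and 536, 563 and 513 in CA4 (log2 fold change -1.26, adjusted p = 0.00187 in limma). In each of the 4 genes the groups did not overlap.

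RHOA, RHOB and RHOC did not pass. RHOA averaged 16454 ± 324 (DMSO) and 15352 ± 448 (CA4; SD over 3 libraries; log2 fold change -0.10, adjusted p = 0.428 in limma), with the CA4 libraries below the DMSO libraries. RHOB and RHOC were fitted at 0.064 and 0.029 log2 units (adjusted p = 0.807 and 0.882 in limma), and both signs turned with equal totals and after quantile normalization, and that of RHOC also with equal 75th percentiles. ARHGEF2, the gene of GEF-H1, had 1314, 1511 and 1334 in DMSO and 1496, 1868 and 1686 in CA4, with a small overlap (log2 fold change 0.28, adjusted p = 0.186 in limma).

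With 1 library left out, fold changes of the called members stayed close to their values while most of the calls were lost, as were calls over all genes, which fell from 688 to between 81 and 156 in 4 of the 6 fits. Without DMSO replicate 1, MYL12A, MYO1E and MYH9 passed together with MYO1C (adjusted p = 0.0196 in limma) and MYO10 (adjusted p = 0.0395 in limma), 5 members in all. MYL12A lost its call without DMSO replicate 2, DMSO replicate 3 or CA4 replicate 3 (limma adjusted p = 0.0627, 0.0724 and 0.0583), with log2 fold changes from 0.54 to 0.67 over the 6 fits. MYO1E and MYH9 each lost theirs without any 1 of the other 5 libraries, with limma adjusted p-values from 0.0579 to 0.0873 for MYO1E and from 0.0875 to 0.156 for MYH9, while their log2 fold changes stayed between 0.48 and 0.61 and between 0.45 and 0.54. MYO9B passed without CA4 replicate 2 (adjusted p = 0.0407 in limma). In the pathway list SVIL and ARHGAP18 passed whichever of the 6 libraries was left out, CALD1 in all cases but DMSO replicate 2 (adjusted p = 0.0587 in limma), and DAPK3 when DMSO replicate 1 was left out, the other 5 giving 0.0521 to 0.0891. The log2 fold changes ran from 0.70 to 0.83 for CALD1 and from 0.44 to 0.51 for DAPK3.

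**Figure D5:**
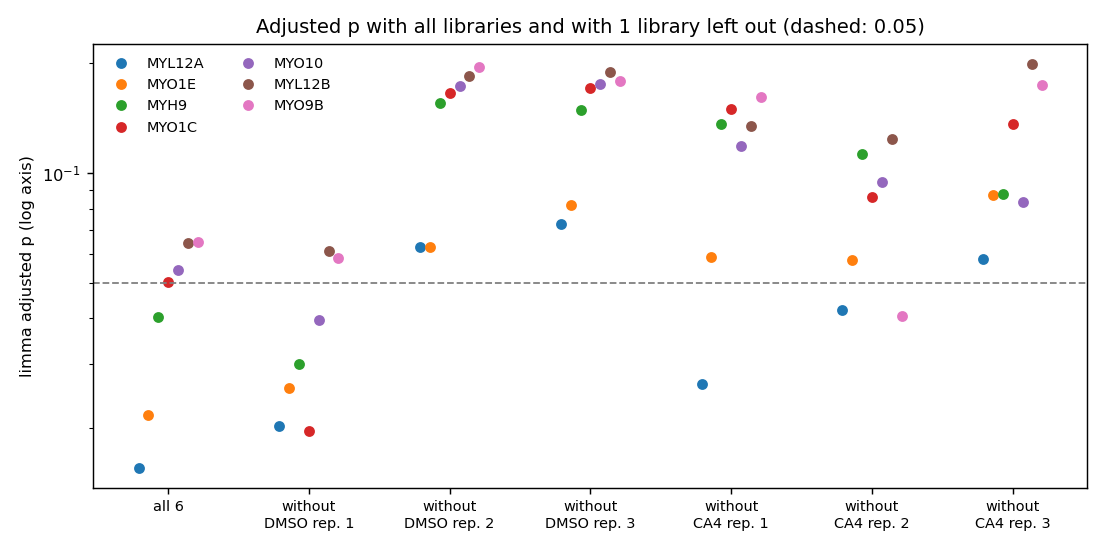
Limma adjusted p on a log axis for the 7 members with the smallest p, with all 6 libraries and with each library left out in turn. The dashed line is 0.05, and without DMSO replicate 2, DMSO replicate 3 or CA4 replicate 3 no point lies under it.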

How the data were processed

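Per the submitters' processing notes, Trim Galore 0.6.6, FastQC 0.12.1, STAR 2.7.9a, Salmon 1.8.0, DESeq2 1.44.0 and the build GRCh38 were used; the role of each, the annotation release and the use of strand are not given in the sources used here. Each deposited value is a signal, made where the authors divided a gene's count by a factor of its library, with 1 column for each of the 6 libraries and 38900 Ensembl IDs. In each column 100% of values were whole multiples of 1 step (tolerance 0.01), which gave whole reads, possibly rounded estimates. Symbols came from the supplied gene table, which matched 35803 IDs.

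Genes with a mean of at least 10 were tested on log2(normalized count + 1), a scale that understates the change of low genes, with limma 3.58.1 in R 4.3.3 (treatment as the only term, mean trend, two-sided, Benjamini-Hochberg over all tested genes, threshold 0.05). Limits for counts of 0 cover counting error only. Alternatives were pseudocounts of 0.1 and 5, no filter, a mean of at least 50, 3 scalings, no trend, a robust prior, the replicate number as a block, leaving out each library, and edgeR 4.0.16 and DESeq2 1.42.0 on the recovered reads. Scripts were tested on simulated data. Ratios were compared by exact permutation over libraries.

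Positions, exons, transcript lengths and coding sequences came from GENCODE 29, promoters from RefSeq. Values in each library are given for members past the threshold, for myosin II chains and the 6 regulators, and for the 5 other members with the smallest p. MYO9A, the MYH7B values and MYO18B were added after their values were seen. Counts cover all 32 tested members, of which 1 is not reported here by itself. Members and lists were chosen with earlier results of these data known.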

Additional observations from a re-analysis of the deposited data

How the results depend on the processing

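Against 3 members called (limma), the count was 0 without the variance trend, 5 of 25 with a mean of at least 50 (804 of 11689 genes), 8 with DESeq2, and 0 to 5 with 1 library left out. Where it was 0, 8 or 9 members (25% or 28.1%) had an unadjusted p under 0.05 (limma), beside 16.7% to 21.1% of all tested genes. For all genes the 688 became 103 without the trend, 1613 with DESeq2 and 81 to 994 with 1 library left out, and for the 4 pathway genes 2, 8 and 2 to 7. Each fit without a library has fewer samples, which lowers the power by construction. Without DMSO replicate 1 the counts rose to 994 genes, 5 members and 7 pathway genes, and without any other library they fell. The cause of these differences was not tested. edgeR called the same 3 members and 643 genes. With the replicate block, 2397 genes, 8 members and 14 pathway genes were called. These 8 members were those that DESeq2 called, MYL12B, MYO1C, MYO10, MYO9B and PPP1R12B among them. Deviations from the group means correlated at 0.202, 0.159 and 0.0588 between same-numbered libraries, and at -0.214 to 0.0741 between libraries of unlike number. CA4 replicate 3 correlated best with DMSO replicate 2. The titles number the replicates but do not say what libraries of the same number share. The main fit left the number out, and whether the libraries are paired was not settled.

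The sign of the fitted change held in each alternative for 18 of the 32 tested members, MYL12A, MYO1E, MYH9, MYO1C, MYO10, MYO9B, MYL12B and MYH10 among them. The other 14, none of them called in any alternative, turned in at least 1, and 13 of them are given here. Under quantile normalization the values were MYL5 at 0.034, MYL6 at -0.13, MYL9 at -0.033, MYO1D at 0.062 and MYO6 at -0.025. With equal totals MYL6 was at -0.046 and MYO6 at -0.079, and with equal 75th percentiles MYO6 was at -0.011. With 1 library left out the values ran from -0.11 to 0.35 for MYH3, -0.20 to 0.079 for MYL5, -0.76 to 0.047 for MYLK3, -0.53 to 0.12 for MYO15B, -0.40 to 0.25 for MYO1D, -0.59 to 0.14 for MYO1F, -0.36 to 0.0004 for MYO5C, -0.021 to 0.059 for MYO6, -0.32 to 0.90 for MYO7B, -0.061 to 0.062 for ROCK1 and -0.16 to 0.016 for ROCK2. The difference in the ratio of ROCK1 to ROCK2 ran from -0.013 to 0.18 and that of MYLK to PPP1R12A from -0.095 to 0.11. The named pathway and adaptor genes were put through the same alternatives after the data were seen. RHOB was at -0.044 under quantile normalization, -0.037 with equal totals and from -0.019 to 0.17 with 1 library left out, and RHOC at -0.069, -0.072, -0.0032 with equal 75th percentiles and from -0.014 to 0.097.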

Other observations

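Genes whose proteins bind unconventional myosins were also listed, 25 in all, and 20 of them were tested. Of these DAB2, VASP and GOLPH3 rose in CA4 and 17 did not pass, so that 15% were called beside 4.94% of all tested genes. DAB2, an endocytic adaptor of MYO6, had 3104, 3201 and 3196 normalized counts in DMSO and 4594, 4574 and 4259 in CA4, without overlap. Its log2 fold change was 0.50 (adjusted p = 0.0156 in limma, SE 0.07), while MYO6 itself had 0.022. VASP, an actin polymerase carried by MYO10 in filopodia, had 4278, 3268 and 3470 in DMSO and 6230, 5649 and 5748 in CA4 (log2 fold change 0.69, SE 0.11, adjusted p = 0.0199 in limma). GOLPH3, which ties MYO18A to the Golgi, had 1696, 1690 and 1736 in DMSO and 2260, 2300 and 2169 in CA4 (log2 fold change 0.39, SE 0.07, adjusted p = 0.0285 in limma).

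The calls of these genes were lost in some fits. DAB2 missed the threshold without DMSO replicate 2, DMSO replicate 3 or CA4 replicate 1 (limma adjusted p = 0.0608, 0.0698 and 0.0605), VASP without those 3 or CA4 replicate 3 (0.0726 to 0.0913), and GOLPH3 without any 1 library other than DMSO replicate 1 (0.07 to 0.101). All 3 missed it without the variance trend (limma adjusted p = 0.0638 for DAB2, 0.0724 for VASP and 0.0838 for GOLPH3), and GOLPH3 also after quantile normalization (0.0503) and with equal totals (0.068). RHOT1, a mitochondrial partner of MYO19, had 630, 699 and 639 in DMSO and 482, 543 and 494 in CA4 without overlap, and missed the threshold (log2 fold change -0.37, adjusted p = 0.0819 in limma). The 3 rab genes RAB8A, RAB10 and RAB11A, whose products recruit class V myosins to vesicles, had log2 fold changes of 0.017, 0.062 and 0.065 and did not pass.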
